A study of Mus musculus with 10 samples.

Results

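The hair shaft keratins and keratin-associated proteins (KAPs), the structural proteins from which a hair is built, were examined in the skin of C3H/HeJ mice grafted with alopecic skin and given baricitinib or vehicle. Members were the hair keratin genes Krt31 to Krt36 and Krt81 to Krt86, and every gene whose symbol begins with Krtap. A gene was read by the probe set that names it alone and has the highest mean over the arrays. This gave 50 genes, 12 hair keratins and 38 KAP genes of 22 subfamilies, of 18193 genes named on the array. Of the 13 keratins of this rule, 1 was not analysed here. Another 6 probe sets that name several KAP genes were left out, since such near-identical genes can share probes.

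The C3H/HeJ strain develops patchy hair loss that resembles alopecia areata (AA), an autoimmune attack on the hair follicle, and grafting affected skin onto unaffected recipients of the strain transfers the disease. All 10 mice of this experiment were such recipients and carried an osmotic pump from the day of grafting, so neither group was ungrafted skin. In 5 mice the pump delivered baricitinib, a small-molecule Janus kinase inhibitor, and in 5 mice it delivered vehicle. Skin was taken at week 12 and each mouse gave 1 Affymetrix array, referred to here as B1 to B5 for baricitinib and V1 to V5 for vehicle. Values are on the log2 scale, and each difference is baricitinib minus vehicle.

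Hair keratins assemble as pairs of an acidic type I chain (Krt31 to Krt36) and a basic type II chain (Krt81 to Krt86) into the intermediate filaments of the shaft. KAPs fill the space between the filaments and crosslink them. By composition they form high-sulphur, ultra-high-sulphur and high-glycine-tyrosine classes. The genes are switched on in order as matrix cells move up the bulb into the cuticle or the cortex, and only follicles in the growth phase (anagen) make them. Because biopsies hold follicles and other skin together, fewer shaft-forming cells and less RNA per cell cannot be told apart in these data.

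The promoters of the genes share letters that the choice of members did not use. RefSeq promoters of mouse build GRCm38.p6 were matched for 43 of the 50 genes. The genes Krt33a, Krt35, Krt81, Krt83, Krt86, Krtap7-1 and Krtap12-1 were not matched. The KAP genes lay in clusters, with 19 on chromosome 16, 10 on chromosome 11, 5 on chromosome 7 and 1 each on chromosomes 10 and 1. Of the matched keratins, 5 type I genes lay on chromosome 11 and 2 type II genes on chromosome 15. In the 250 bases before the transcription start the letters TATAAA, the core of a TATA box, stood on the gene's own strand in 32 of 43 members (74.4%), against 7.59% of 32851 promoters in the table. On either strand the shares were 76.7% and 12.4%. TATAAA began 20 to 40 bases before the start in 24 members (55.8%), against 1.99% of all promoters. By class this was so for 9 of 12 ultra-high-sulphur, 4 of 9 high-sulphur and 6 of 13 high-glycine-tyrosine genes and for 3 of 7 keratins. Words read by the LEF1/TCF factors of the hair matrix (CTTTGAA, also CTTTGAT, as well as CTTTGTT, on either strand) were found in 17 members (39.5%), against 12.0% of all promoters. CTTTGAA alone was in 10 of 43 members (23.3%), against 4.46% of all promoters on either strand. It stood in 4 of 7 keratins, 4 of 9 high-sulphur, 2 of 13 high-glycine-tyrosine and 0 of 12 ultra-high-sulphur genes. These matches describe letters and not occupied sites. Only exact words were counted, so near forms such as TATATAAG, present in Krtap14, Krtap15 and Krtap19-1, were missed. Many members are clustered relatives, so their promoters are not independent.

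The 100 bases before the start are shown for 6 genes that stand for the contrasts described below, in lower case with TATAAA in capitals. Krt31 is a cortex keratin, Krt82 a cuticle keratin, Krtap4-1 an ultra-high-sulphur gene and Krtap6-3 the high-glycine-tyrosine gene with the largest difference. Krtap5-2 and Krtap5-3 are neighbours in the Krtap5 cluster with differences of negative sign. Their positions are chr11:100050552-100050651 (minus strand), chr15:101550660-101550759 (minus), chr11:99628240-99628339 (minus), chr16:89083924-89084023 (plus), chr7:142176006-142176105 (minus) and chr7:142201264-142201363 (plus).
Krt31: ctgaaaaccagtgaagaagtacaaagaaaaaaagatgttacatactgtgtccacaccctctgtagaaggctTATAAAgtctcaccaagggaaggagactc
Krt82: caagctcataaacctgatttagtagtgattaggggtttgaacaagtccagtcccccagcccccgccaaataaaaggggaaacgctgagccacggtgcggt
Krtap4-1: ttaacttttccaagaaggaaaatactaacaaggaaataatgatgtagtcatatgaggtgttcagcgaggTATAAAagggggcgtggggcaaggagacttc
Krtap6-3: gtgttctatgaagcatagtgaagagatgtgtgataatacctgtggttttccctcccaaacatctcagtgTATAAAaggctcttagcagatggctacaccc
Krtap5-2: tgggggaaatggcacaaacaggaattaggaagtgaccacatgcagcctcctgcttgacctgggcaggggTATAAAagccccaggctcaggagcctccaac
Krtap5-3: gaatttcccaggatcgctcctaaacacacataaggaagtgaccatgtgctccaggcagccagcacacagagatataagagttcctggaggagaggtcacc
TATAAA began 29 bases before the start in Krt31 and 31 bases before it in Krtap4-1, Krtap6-3 and Krtap5-2. It was not among the 250 bases before the start of Krt82 or Krtap5-3.

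The arrays differed in ways that bear on every value below. V5 correlated with the other 9 arrays at 0.70 to 0.73 over all probe sets, whereas B5 and V4 formed the closest pair of all (0.994). The study's methods dropped 1 vehicle array that the labels do not name, so results are given with all 10 arrays and again without V5. The 3' minus 5' gap of the Gapdh and beta-actin control probe sets, which widens in degraded RNA, was 0.99 to 1.18 log2 in the 5 baricitinib arrays and 1.01 in V4, but 2.0 to 4.35 in V1 to V3 and 4.06 in V5. The gap was thus narrower in the baricitinib arrays than in every vehicle array but V4. With the gap as a covariate the members' median difference below changed sign, from 1.07 to -0.99. V4 alone of the vehicle arrays lay in the range of the baricitinib gaps, so the adjusted values rest heavily on V4. Apart from V4, group and gap cannot be told apart here.

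Hair shaft genes did not separate the groups. At an adjusted p under 0.05 (limma, Benjamini-Hochberg over 45037 probe sets) 0 of 50 members passed, as did 0% of all probe sets, and the members' adjusted p ranged from 0.393 to 0.992. At an unadjusted p under 0.05 it was again 0 members in either direction, against 9.21% of all probe sets higher and 5.62% lower with baricitinib. In 0 members did the values of the groups fail to overlap, against 3.09% of probe sets with all baricitinib arrays higher and 2.03% with all lower. Without V5 this was again 0 members, against 4.42% of probe sets higher and 4.11% lower. The median difference was 1.07 and 46 of 50 differences were above 0, against a median of 0.01 and 50.3% above 0 over all named genes. This median rested on V5: without it the median was -0.06, with 23 of 50 above 0 (42.8% of all named genes). Without V5, 1 member passed an unadjusted p of 0.05, Krtap5-3, which was lower with baricitinib (13.5% of all probe sets were lower at this threshold and 14.4% higher). For 43 of the 50 genes the 95% interval of the difference reached below -1 and above 1, so these arrays did not bound the differences to within 1 log2 unit.

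**Figure D1:**
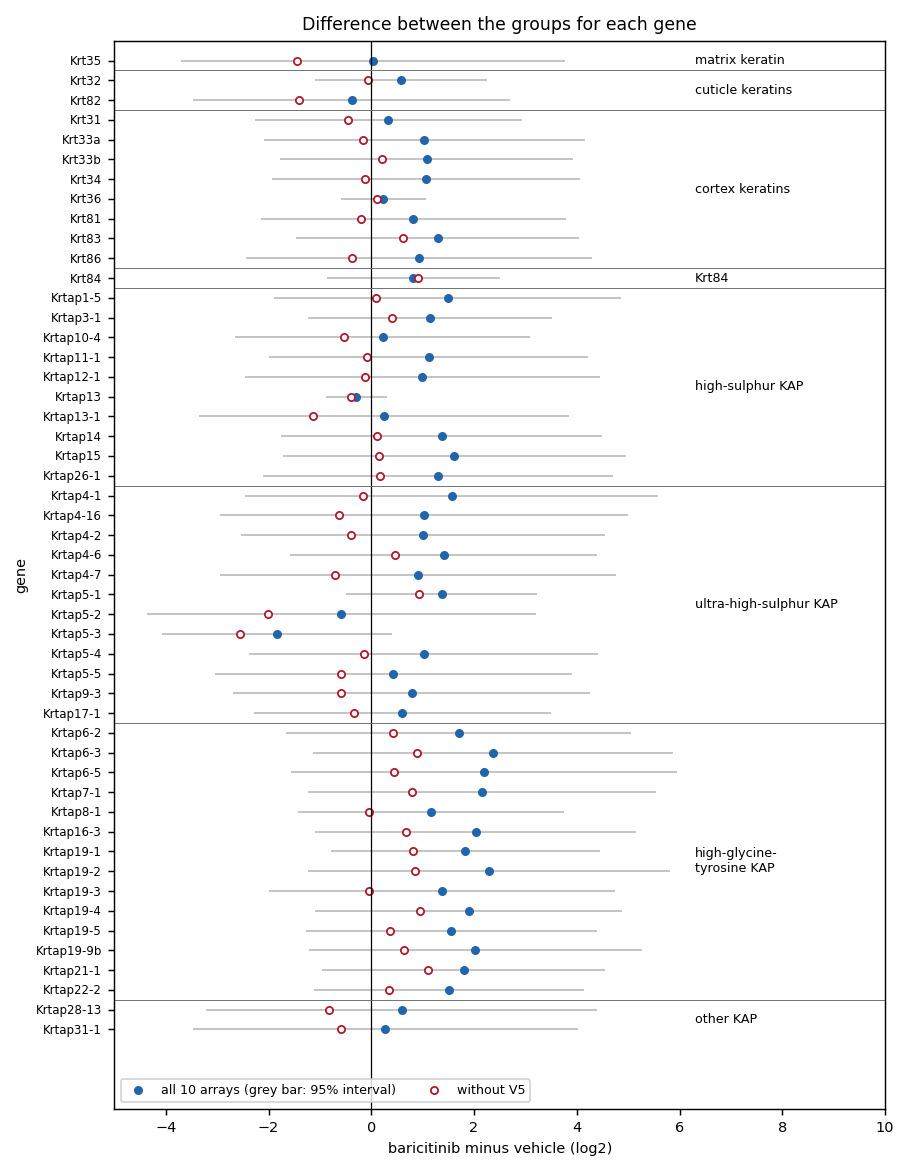
Baricitinib minus vehicle on the log2 scale (horizontal axis) for each of the 50 hair shaft genes (vertical axis, grouped by class), with filled points and 95% intervals for all 10 arrays and open points without V5. Of the filled points 46 of 50 lie above 0, every interval spans 0, and 23 open points lie above 0.

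The hair shaft genes were spread widely among mice of the same group. Their SD over the 5 baricitinib arrays had a median of 2.29 log2 and exceeded 1 in 48 of 50 genes, against a median of 0.21 and 3.62% of all named genes. It was above the SD of V1 to V4 in 49 of 50, whose median was 0.83, but above the SD of all 5 vehicle arrays in 17 of 50, whose median was 2.75. The order of the mice was shared. B3 was the lowest baricitinib array for 50 of 50 genes (18.6% of all named genes) and B4 the next lowest for 49. B2 was the highest of all 10 arrays for 41 (9.23% of all named genes) and B1 for 5. Within the vehicle group V4 was above V1 to V3 for 50 of 50 genes (28.5% of all named genes), and V5 was the lowest of all 10 arrays for 43 (47.9%), B3 being lowest for the other 7. Both B1 and B2 were above V1 to V4 for 44 genes, whereas B3 was below V1 to V4 for all 50 and B5 lay within their range for 42. For the counts given here without a share, the share of all named genes was not computed. The median B2 minus B3 difference was 5.41 log2, with a range from 0.80 to 7.35. The baricitinib group therefore held skin with the highest and nearly the lowest shaft gene levels of the experiment.

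**Figure D2:**
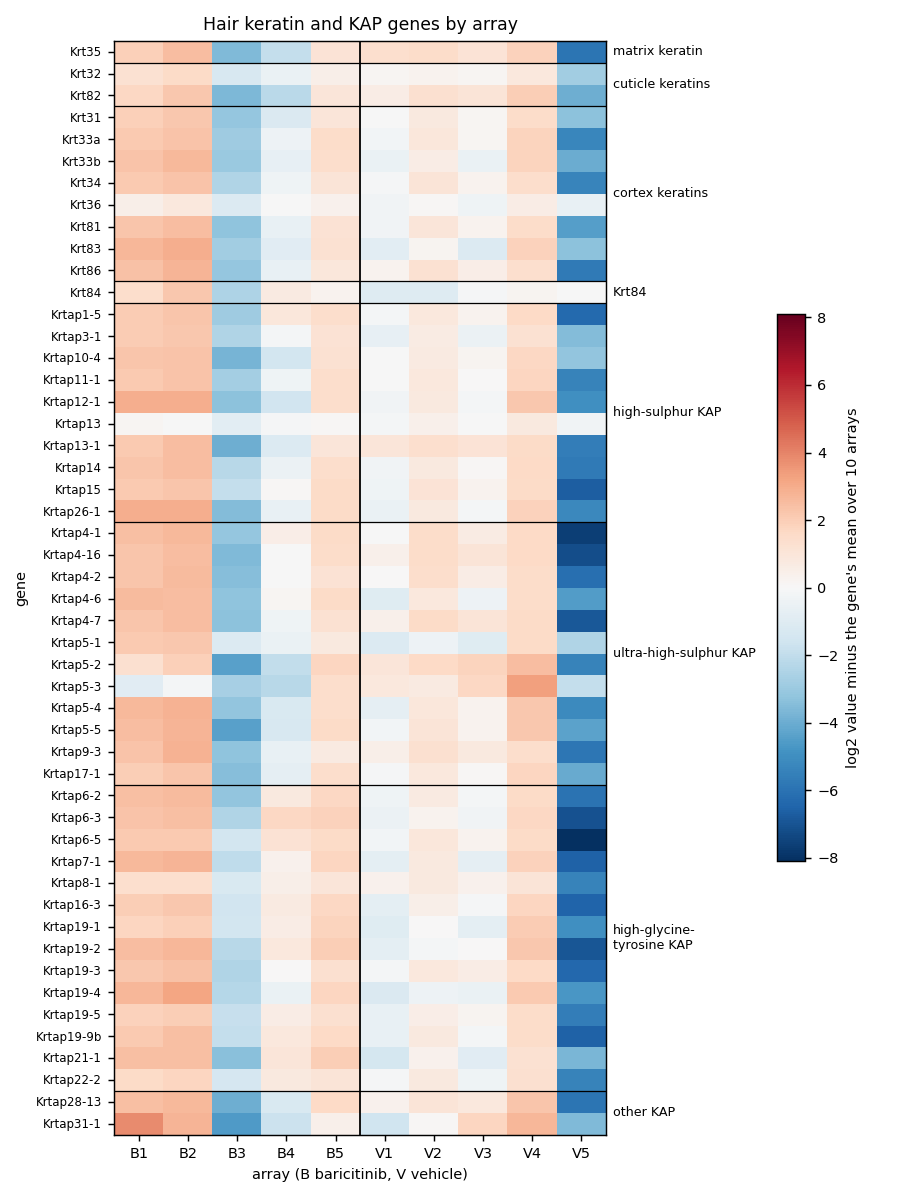
Log2 value of each hair shaft gene on each array after subtracting its own 10-array average (colour), with genes in rows by class and arrays in columns (B baricitinib, V vehicle). Columns B3 and V5 are blue for nearly every gene, and B1, B2 and V4 are red for most.

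The members followed each other closely over the arrays. The median pairwise correlation was 0.935 over the 10 arrays, 0.926 without V5, 0.978 over the 5 baricitinib arrays and 0.947 over V1 to V4. These are correlations over few mice that share array, depth of signal and the contrast between V5 and the rest, and they are given as a description.

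Among the keratins, Krt35 is the first type I hair keratin of the matrix and precortex. Its values were 11.11, 11.69, 5.60, 7.29 and 10.31 in B1 to B5 and 10.52, 10.65, 10.32, 11.07 and 3.27 in V1 to V5. V1 to V4 lay within 1 log2 unit of each other, B1 and B2 were above them, and B3 and B4 were far below. The difference was 0.03 (SE 1.68, adjusted p = 0.992) and -1.44 without V5 (SE 1.15, adjusted p = 0.422). The cuticle keratins Krt32 and Krt82 form the overlapping scales that coat the shaft. Krt82 was 10.12, 10.61, 4.82, 6.26 and 9.40 in B1 to B5 against 9.0, 9.72, 9.49, 10.40 and 4.50 in V1 to V5. Its groups overlapped, with B3 close to V5. The difference for Krt82 was -0.38 (SE 1.39, adjusted p = 0.876), and -1.41 without V5. Krt32 was 10.72, 11.06, 8.24, 8.95 and 9.99 in B1 to B5 and 9.64, 9.81, 9.63, 10.35 and 6.68 in V1 to V5, a narrower range, with V5 and B3 again the lowest arrays. Its difference was 0.57 (SE 0.75, adjusted p = 0.652) and -0.07 without V5.

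The 8 cortex keratins make up the bulk of the fibre. Their median difference was 0.98, with all 8 above 0, and -0.14 without V5, with 3 above 0. Krt83 had the largest difference of the keratins. It was 12.21, 12.48, 6.73, 8.61 and 10.75 in B1 to B5 and 8.64, 9.73, 8.42, 11.35 and 6.18 in V1 to V5. B1 and B2 were the highest arrays and V5 and B3 the lowest. The difference was 1.29 ± 1.24 (SE, adjusted p = 0.544) and 0.62 without V5. Its relative Krt86 was 12.29, 12.64, 6.81, 9.34 and 10.83 in B1 to B5 and 10.17, 11.12, 10.46, 11.27 and 4.22 in V1 to V5, with a difference of 0.93 (SE 1.51) and -0.37 without V5. For Krt86 B4 lay below V1 to V4 and for Krt83 it lay within V1 to V4. The other cortex keratins, Krt33a, Krt33b, Krt34 and Krt81, differed by 1.03, 1.08, 1.07 and 0.81, and by -0.15, 0.21, -0.13 and -0.20 without V5. Krt31 differed by 0.33 and -0.46. Krt36 varied least, between 5.77 in B3 and 7.75 in B2, with a difference of 0.23 (SE 0.37) and 0.10 without V5.

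Krt84 is a keratin of filiform papillae and nail more than of body hair. It was 8.32, 9.08, 4.40, 7.62 and 7.24 in B1 to B5 and 5.86, 5.90, 6.81, 7.16 and 6.87 in V1 to V5. Here V5 was among the vehicle arrays and not below them, and 4 of 5 baricitinib arrays were above all 5 vehicle arrays, with B3 below all of them. The difference of 0.82 (SE 0.76, adjusted p = 0.533) was 0.90 without V5, and Krt84 was the 1 keratin whose difference was higher without that array.

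**Figure D3:**
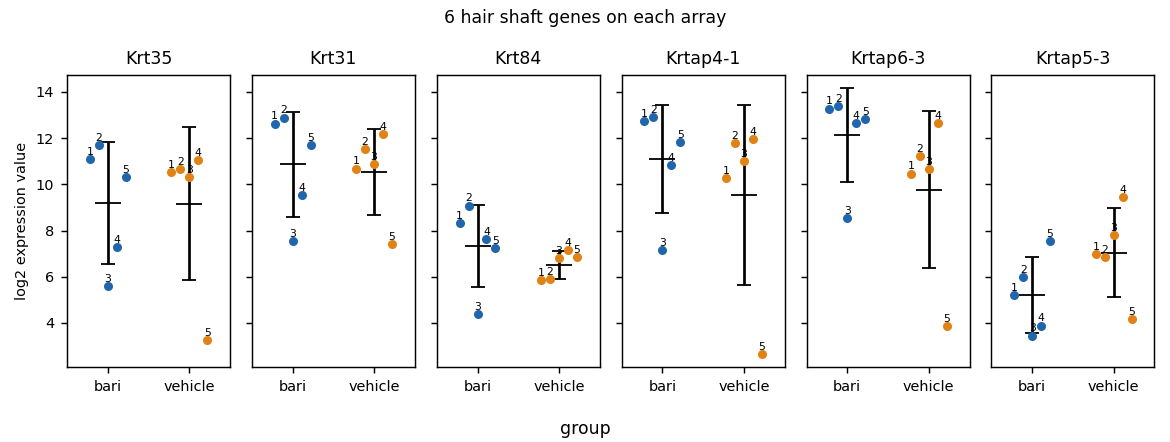
Log2 values of 6 hair shaft genes (vertical axis) in each baricitinib and vehicle array, numbered by replicate, with the group mean and SD (bars, n = 5 arrays a group). Baricitinib replicate 3 is the lowest baricitinib point in every panel, and vehicle replicate 5 is the lowest vehicle point in every panel except Krt84.

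The high-sulphur KAPs of the cortex and cuticle numbered 10. Their median difference was 1.13, with 9 above 0, and 0.0047 without V5, with 5 above 0. Krtap1-5 was 12.96, 13.16, 8.05, 11.83 and 12.36 in B1 to B5 and 10.78, 11.81, 11.19, 12.54 and 4.61 in V1 to V5. All baricitinib arrays but B3 were above V1 to V3. The difference was 1.49 (SE 1.52, adjusted p = 0.564) and 0.10 without V5. Krtap15 and Krtap14 differed by 1.62 and 1.37 with all arrays and by 0.16 and 0.11 without V5. Krtap3-1, Krtap11-1, Krtap12-1 and Krtap26-1 differed by 1.14, 1.12, 0.99 and 1.30, and by 0.40, -0.09, -0.12 and 0.17 without V5. Krtap10-4 differed by 0.23 and -0.54. Krtap13 stayed between 2.14 and 3.78 on every array and differed by -0.29 (SE 0.27) and -0.40 without V5. Its subfamily had 2 genes with a median of -0.03 and -0.76.

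The ultra-high-sulphur KAPs, rich in cysteine and found in cuticle and cortex, numbered 12. Their median difference was 0.95, with 10 above 0, and -0.49 without V5, with 2 above 0. The 5 Krtap4 genes differed by 0.91 to 1.56 with a median of 1.02, and by -0.70 to 0.46 with a median of -0.40 without V5. Of these Krtap4-1 was 12.74, 12.92, 7.16, 10.83 and 11.84 in B1 to B5 and 10.29, 11.78, 11.0, 11.95 and 2.67 in V1 to V5. Its V5 value was over 7 log2 units below any other vehicle array, and V1 to V4 spread over less than 2 units. The difference was 1.56 (SE 1.81, adjusted p = 0.609) and -0.16 without V5. Krtap9-3 and Krtap17-1 differed by 0.79 and 0.60, and by -0.59 and -0.34 without V5.

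The 5 Krtap5 genes, a cluster of cuticle KAPs on chromosome 7, were the least alike. Krtap5-3 was 5.19, 5.98, 3.46, 3.89 and 7.53 in B1 to B5 and 6.97, 6.84, 7.80, 9.45 and 4.17 in V1 to V5. B1 to B4 were below V1 to V4, while B5 lay among them. The difference was -1.84 (SE 1.01, adjusted p = 0.393) with all arrays. Without V5 it was -2.56 (SE 0.85, adjusted p = 0.108), the smallest p of the members and not past the threshold. Krtap5-2, chosen after its values were seen, was 10.58, 11.25, 4.90, 7.28 and 11.05 in B1 to B5 and 10.26, 10.92, 11.11, 11.77 and 3.91 in V1 to V5. Only B3 and B4 were below V1 to V4. The difference was -0.58 (SE 1.70) and -2.0 without V5 (adjusted p = 0.307). Krtap5-1 lay the other way. Its values were 11.95, 11.95, 8.68, 9.27 and 10.57 in B1 to B5 and 8.70, 9.37, 8.81, 11.33 and 7.34 in V1 to V5, a difference of 1.37 (SE 0.84, adjusted p = 0.425) and 0.93 without V5. The median of the subfamily was 0.43 and -0.60.

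The 14 high-glycine-tyrosine KAPs are small proteins of the cortex. Their median difference was 1.86, the largest of the classes, with all 14 above 1 (7.02% of all named genes were above 1). Without V5 it was 0.65, with 12 above 0 and 1 above 1 (2.64% of all named genes). With the 3' minus 5' gap as a covariate the class median was -0.64, and -0.18 with V5 also left out. That of the high-sulphur class was then -0.99 and -0.72 and that of the ultra-high-sulphur class -1.31 and -0.90. Krtap6-3 was 13.28, 13.40, 8.55, 12.65 and 12.84 in B1 to B5 and 10.47, 11.22, 10.65, 12.65 and 3.88 in V1 to V5. All baricitinib arrays but B3 were above V1 to V3 and close to or above V4. The difference was 2.37 (SE 1.58, adjusted p = 0.447) and 0.90 without V5. Krtap21-1 kept most of its difference without that array. It was 12.70, 12.67, 6.85, 11.25 and 12.24 in B1 to B5 against 8.82, 10.60, 9.31, 11.46 and 6.54 in V1 to V5. The differences for Krtap21-1 were 1.80 (SE 1.24) and 1.10 (SE 1.17, adjusted p = 0.548). With the gap as a covariate its difference was -0.089, and 0.097 with V5 also left out. The 3 Krtap6 genes had a median of 2.19, and 0.44 without V5, and the 6 Krtap19 genes a median of 1.86 and 0.73. In the latter Krtap19-2 was 12.65, 12.84, 7.92, 11.04 and 12.18 in B1 to B5 and 9.36, 10.03, 10.18, 12.33 and 3.23 in V1 to V5, a difference of 2.30 (SE 1.58) and 0.85 without V5. Krtap7-1, Krtap16-3, Krtap22-2 and Krtap8-1 differed by 2.15, 2.03, 1.51 and 1.16, and by 0.79, 0.67, 0.34 and -0.05 without V5. None of the 14 had an adjusted p below 0.437.

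The high-glycine-tyrosine class parted from the others in B4 and also in B3. Against the mean of V1 to V3, B4 was higher for 12 of 14 high-glycine-tyrosine genes, with a median of 0.76 above that mean. It was higher for 2 of 10 high-sulphur genes (median -0.66), 2 of 12 ultra-high-sulphur genes (median -1.19) and 2 of 12 keratins (median -0.76). V1 to V3 had wider 3' minus 5' gaps than B4, whereas the gap of V4 was close to that of B4. B4 minus V4 had medians of -0.83 for high-glycine-tyrosine, -2.09 for high-sulphur and -2.03 for ultra-high-sulphur genes and -2.17 for keratins. By these medians B4 was below V4 in each class. B3 was below the mean of V1 to V3 for every member, by a median of -1.89 for high-glycine-tyrosine and -3.97 for ultra-high-sulphur genes. For high-sulphur genes this median was -3.11 and for keratins -3.02. B2 was above it by medians of 1.92 to 2.45 in the 3 KAP classes and 1.94 in the keratins. Krtap28-13 and Krtap31-1, which were placed in no class, were lower in B4 (median -1.90) and differed by 0.59 and 0.27 between the groups, and by -0.82 and -0.59 without V5. Class differences within a single mouse have no replicate and were not tested.

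**Figure D4:**
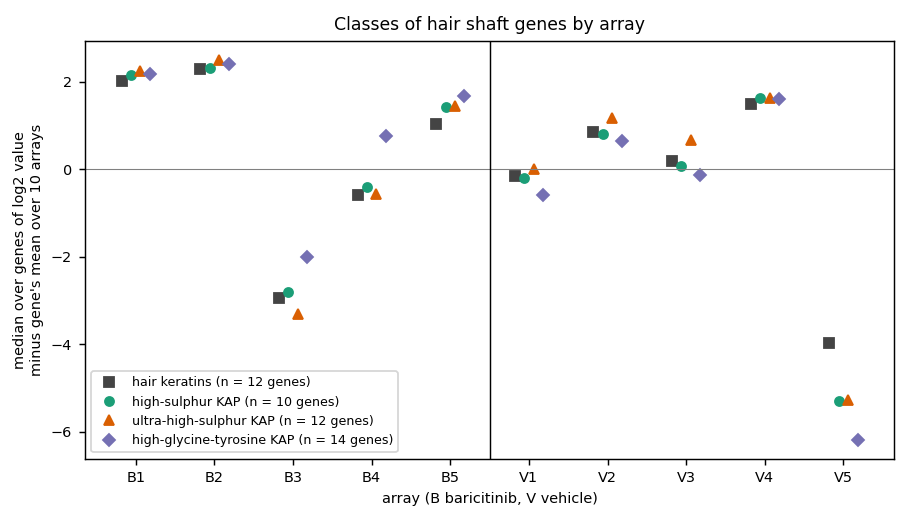
Median over the genes of each class of the log2 value after subtracting each gene's own 10-array average (vertical axis), by array (horizontal axis, B baricitinib, V vehicle). The classes lie closest in B1, B2 and V4 and part most in B3, B4 and V5. They also part in V1 to V3, though less. There ultra-high-sulphur genes are at 0.01, 1.17 and 0.66 and high-glycine-tyrosine genes at -0.59, 0.64 and -0.13. High-glycine-tyrosine genes are at -2.01 in B3 and 0.75 in B4, and ultra-high-sulphur genes at -3.30 and -0.57. In V5 keratins are at -3.97 and high-glycine-tyrosine genes at -6.18.

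For 5 KAP genes a second probe set gave a check. Krtap6-3, Krtap16-3 and Krtap5-1 differed by 2.44, 2.46 and 1.22 on the second probe set. Krtap19-1 differed by 1.83 on the probe set used and 2.98 on the other, and by 0.82 and 1.79 without V5. Krtap12-1 differed by 0.99 and 1.03, but by -0.12 and 0.51 without V5, so the 2 probe sets disagreed in sign there. No second probe set passed the threshold. Several KAP probe sets can bind transcripts of near-identical relatives, so values of single KAP genes are less certain than those of the classes.

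By list median, genes that act upstream of the shaft proteins were also lowest in V5 and B3. Single genes varied: the lowest baricitinib array was B4 for Foxn1, Msx1, Lef1 and Ovol1, B5 for Bmp4 and B2 for Gata3. Of 12 measured regulators of hair keratin genes and hair matrix, 0 passed the adjusted threshold and 1, Gata3, passed an unadjusted p of 0.05, where 9.21% of all probe sets were higher. Gata3, a transcription factor of the inner root sheath, was 10.08 to 10.36 in the baricitinib arrays and 9.36, 9.60, 8.98, 10.19 and 7.93 in V1 to V5. V4 lay within the baricitinib range. The difference was 1.0 (SE 0.36, adjusted p = 0.271) and 0.68 without V5 (adjusted p = 0.098). Gata3 was flat across the baricitinib mice in which the shaft genes were spread. Lef1, named outside the rule because of the promoter words above, was 11.39, 12.02, 10.01, 9.57 and 11.48 in B1 to B5 and 10.20, 10.60, 9.85, 11.79 and 10.26 in V1 to V5, with a difference of 0.35 (SE 0.52). The median of the 12 was 0.40, with 9 above 0 and 3 below, and -0.01 without V5, with 6 above 0. The lowest difference was that of Shh, -0.69 (SE 1.22).

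Of 14 other shaft and cuticle genes listed, 10 were measured and 0 passed at either threshold. Their centred median, the list's median after taking each gene's mean over the 10 arrays from its values, was 2.18, 2.54, -2.50, -0.49 and 1.30 in B1 to B5 and -0.45, 0.83, -0.13, 1.65 and -4.60 in V1 to V5. For the 50 members it was 2.17, 2.43, -2.88, -0.36 and 1.41, and -0.22, 0.81, 0.19, 1.63 and -5.35. By the list's median these genes took the order of the members, but Selenbp1, a selenium-binding protein named after its values were seen, was flat at 10.38 to 10.89 in the baricitinib arrays, with B2 the lowest of them. Tchhl1, a trichohyalin-like protein, had the largest difference of the list, 2.23 (SE 1.46, adjusted p = 0.441) and 1.20 without V5. Of 10 inner root sheath genes, the mould around the growing shaft, 9 were measured and 0 passed. Their median difference was 0.49, and -0.58 without V5. Krt28 had the largest, 1.35 (SE 1.42) and 0.27 without V5.

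Markers of other cells took different orders, given here beside the shaft genes, and their part in the shaft gene values was not tested. The 5 measured proliferation genes were lowest in V5 (centred median -2.27) and in B4 (-2.12), and B3 was at -0.84, whereas B5 and V4 were at 0.98 and 1.35. Cdk1, a cell division kinase, was 8.57, 9.72, 7.67, 6.35 and 9.59 in B1 to B5 and 9.52, 9.80, 9.70, 10.20 and 7.43 in V1 to V5, a difference of -0.95 (SE 0.72) and -1.42 without V5 (adjusted p = 0.174). By list median the 6 T cell genes separated B5 from its group. Their centred medians were -1.72 to -0.49 in B1 to B4, 0.96 in B5, 0.59 to 1.29 in V1 to V4 and -2.22 in V5. Gzmb, a granule protease of cytotoxic cells, was 3.64 to 4.04 in B1 to B4, 9.69 in B5, 9.19 to 10.96 in V1 to V4 and 4.76 in V5. The list was not uniform. Cd3e, named after its values were seen, was 10.24, 9.25, 10.53, 10.58 and 10.67 in B1 to B5, so B5 was not set apart there. Cd3g, a subunit of the T cell receptor complex named after its values were seen, was 9.06, 7.55, 9.68, 9.95 and 10.07 in B1 to B5 and 9.50, 10.05, 9.06, 10.06 and 6.08 in V1 to V5, a difference of 0.31 (SE 0.78) and -0.41 without V5. B1 to B4, with Gzmb at the levels given, held both the highest and the lowest shaft genes of their group.

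Genes of tissues beneath the dermis differed by more than 0 in 4 of 4 adipocyte and 5 of 6 skeletal muscle genes, 0 of them past the adjusted threshold. The 4 measured adipocyte genes had a median difference of 2.06 (1.95 without V5) and 3 were higher at an unadjusted p under 0.05 (9.21% of all probe sets), with Lep at 2.67 (SE 0.50, adjusted p = 0.221). Their centred median was highest in B3 (1.71) and lowest in V1 (-1.86). The 6 skeletal muscle genes had a median difference of 0.87 (0.38 with the 3' minus 5' gap as a covariate), with 4 higher at an unadjusted p under 0.05 and Ckm, a muscle creatine kinase, at 1.67 (SE 0.50). Their centred median was also highest in B3 (1.15). The 6 melanocyte genes were highest in B2 (2.57) and V4 (1.77), with Mlana differing by 1.28 (SE 1.15). The 8 epidermal keratinocyte genes had centred medians between -0.45 and 0.44 on all 10 arrays. Their differences were above 0 in 2 genes and below 0 in 6. Flg, a cornified layer protein, differed by -1.34 (SE 0.34, adjusted p = 0.224). Ivl of the same list, named after its values were seen, differed by 0.80 (SE 0.34, adjusted p = 0.322). The 5 macrophage genes had centred medians between -0.20 and 0.24, with 3 differences above 0 and 2 below. Cd163 differed by 1.02 (SE 0.31, adjusted p = 0.239). Csf1r, named after its values were seen, went the other way at -0.73 (SE 0.20, adjusted p = 0.227). In B3, the mouse with the lowest shaft genes of its group, the epidermal median was at 0.04. Its adipocyte and muscle medians were the highest of the 10. The adipocyte median was also 1.41 in B1 and 0.85 in B2, where shaft genes were highest, 0.90 in B4 and -0.06 in B5. The muscle median was 0.44, -0.32, 0.85 and 0.51 in B1, B2, B4 and B5. A relation of these tissues to the shaft gene values was not tested.

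**Figure D5:**
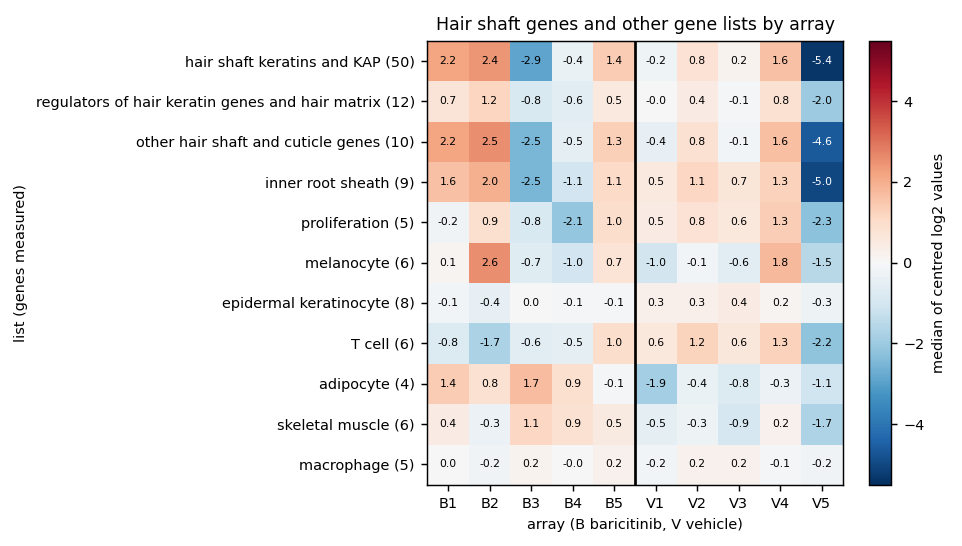
Median over the genes of each list of the log2 value after subtracting each gene's own 10-array average (colour and printed value), by list (rows, number of genes measured) and array (columns, B baricitinib, V vehicle). Other shaft genes and the inner root sheath are lowest in V5 and B3 as the hair shaft genes are, while T cell genes are high in B5 and V1 to V4 and adipocyte genes are highest in B3.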

How the data were processed

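Skin of 5 baricitinib and 5 vehicle mice was profiled on Affymetrix mouse genome arrays after RNA amplification. The deposited table holds a log2 value for each probe set and array, computed by the authors with RMA on this experiment alone (RMA version: not given in the sources used here). RMA scales the arrays to each other, so a general loss of signal can become shifts between genes. Array means were 6.43 to 6.45, and the SD over probe sets was 2.71 to 2.79 in 9 arrays but 2.28 in V5. Genes were named through the platform annotation, in which 34945 probe sets had 1 symbol, 932 several and 9160 none.

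Groups were taken from the sample titles. Control probe sets (64) were excluded, and the remaining 45037 were fitted without a filter in limma (3.58.1, R 4.3.3; lmFit, eBayes, two-sided, Benjamini-Hochberg). Class, subfamily and list values are medians over genes with no test. The number of arrays limits the precision. The calculation was checked on simulated data. Replicate numbers did not pair the samples.

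The members and gene lists were chosen with earlier results of these data known, and so were the KAP classes. Named genes were every keratin, in each Krtap subfamily the largest difference, the 5 smallest p of the KAPs, and in each list the largest difference. Alternatives were each array left out, array centring, quantile and cyclic loess normalization, array weights, the 3' minus 5' gap as a covariate, a minimum mean of 5 log2, other probe set choices and eBayes settings, and the replicate block. RefSeq promoters of GRCm38.p6 were searched as plain words.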

Additional observations from a re-analysis of the deposited data

Results flagged for a closer look

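Among 92 groups of 5 arrays, for the 46 named genes, 23 had 1 array set apart from the rest by a gap of over 0.71 of the range (Dixon's test, by which chance sets apart about 5% of groups). V5 was the low array in 18, B3 in 4 and B5 the high one in 1. Since the genes move together these are few independent events. Some named genes were also chosen for a large difference in these same data, which a low V5 can enlarge. The share of about 5% is therefore no fair comparison for them.

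V5 was set apart from the vehicle group at 3.27 log2 for Krt35, 6.68 for Krt32, 4.50 for Krt82, 6.01 for Krt33a, 5.62 for Krt34 and 4.22 for Krt86. Among the KAPs it was set apart at 4.61 for Krtap1-5, 2.67 for Krtap4-1, 3.88 for Krtap6-3, 6.81 for Krtap8-1, 3.33 for Krtap9-3, 5.63 for Krtap11-1, 4.40 for Krtap14, 4.81 for Krtap15, 6.37 for Krtap22-2 and 3.20 for Krtap28-13. Outside the shaft genes it was set apart at 7.43 for Cdk1 and 4.76 for Gzmb.

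B3 was the low baricitinib array at 8.05 for Krtap1-5, 8.55 for Krtap6-3, 2.14 for Krtap13 and 6.85 for Krtap21-1. B5 was the high baricitinib array at 9.69 for Gzmb.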

How the results depend on the processing

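The count of members past the adjusted threshold was 0 under every alternative run, including array weights, the replicate block and 1 probe set per gene. The median difference of all members, 1.07, ranged from -0.06 (without V5) to 1.94 (without B3) when 1 array was left out, that of the keratins from -0.14 to 1.64 and that of the KAPs from 0.03 to 2.04. With V4 and V5 both left out, added after seeing the data, the 3 medians were 0.28, 0.11 and 0.41. With the 3' minus 5' gap as a covariate they were -0.99, -1.04 and -0.95, and with V5 also left out, again added later, -0.61, -0.71 and -0.50; the cause was not tested. Array weights gave 0.64, 0.40 and 0.74, and centring, quantile and cyclic loess normalization kept all 3 above 0. The replicate block left the medians at 1.07, 0.82 and 1.34 and changed no call. Pairing was not borne out, since deviations of same-numbered arrays correlated at 0.088, 0.046, -0.032, -0.11 and -0.23.

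Apart from the 6 genes named at the end of this section, single genes below were past the threshold in neither setting. With the gap covariate the sign turned for 35 named genes: Krt31 (-1.21), Krt32 (-0.52), Krt33a (-1.21), Krt33b (-1.01), Krt34 (-1.02), Krt35 (-2.13), Krt36 (-0.31), Krt81 (-1.06), Krt83 (-0.73), Krt86 (-1.14), Krt28 (-1.21), Tchhl1 (-0.46), Mlana (-1.06), Krtap1-5 (-0.95), Krtap3-1 (-0.58), Krtap4-1 (-1.20), Krtap5-1 (-0.17), Krtap6-3 (-0.40), Krtap7-1 (-0.79), Krtap8-1 (-0.77), Krtap9-3 (-1.28), Krtap10-4 (-1.31), Krtap11-1 (-1.16), Krtap12-1 (-1.40), Krtap14 (-0.93), Krtap15 (-0.94), Krtap16-3 (-0.56), Krtap17-1 (-1.30), Krtap19-1 (-0.67), Krtap19-2 (-0.44), Krtap21-1 (-0.089), Krtap22-2 (-0.77), Krtap26-1 (-1.03), Krtap28-13 (-1.77) and Krtap31-1 (-1.21). Krt35 also turned with centring (-0.039), array weights (-0.70) and cyclic loess (-0.26), and cyclic loess turned Krtap10-4 (-0.026), Krtap13 (0.019) and Krtap31-1 (-0.045).

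With 1 array left out, 17 named genes changed sign at least once, 16 of them without V5. Their ranges were -0.46 to 1.15 for Krt31, -0.065 to 0.96 for Krt32, -0.15 to 1.88 for Krt33a, -0.13 to 1.81 for Krt34, -1.44 to 0.93 for Krt35, -0.20 to 1.73 for Krt81, -1.41 to 0.47 for Krt82, -0.37 to 1.83 for Krt86, -0.16 to 2.54 for Krtap4-1, -0.046 to 1.62 for Krtap8-1, -0.59 to 1.69 for Krtap9-3, -0.54 to 1.20 for Krtap10-4, -0.087 to 1.94 for Krtap11-1, -0.12 to 1.95 for Krtap12-1, -0.34 to 1.53 for Krtap17-1, -0.82 to 1.65 for Krtap28-13 and -0.65 to 1.45 for Krtap31-1. Among other genes named, Gata3, Flg, Gzmb, Lep, Ckm and Cd163 passed the threshold with array weights, and Lep also without V4.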
